A study of Mus musculus with 9 samples.

Results

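Thrombospondins and other matricellular proteins are secreted into the extracellular matrix, where most of them adjust how cells attach, migrate and receive growth factors rather than serve mainly as structural fibres. The 10 genes described here, of 47729 in the deposited table, are the listed genes for the 5 thrombospondins (Thbs1, Thbs2, Thbs3, Thbs4 and Comp), for tenascin C (Tnc), periostin (Postn), SPARC (Sparc) and osteopontin (Spp1), and for fibronectin (Fn1), which is a structural matrix glycoprotein as well as a ligand of integrins. They were taken by name, and all 10 passed the filter on low values that left 15623 genes for testing. Thbs1 and Thbs2 encode trimeric thrombospondins that bind CD36 and CD47 and limit blood vessel growth, and THBS1 can activate latent TGF-beta. Thbs3, Thbs4 and Comp encode the pentameric thrombospondins, of which COMP is a major matrix protein of cartilage and tendon. Tenascin C, periostin and osteopontin are made in healing and inflamed joints and signal through integrins.

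The cells were cultured synovial fibroblasts grown from collagenase-digested paws of wild-type BALB/c mice and kept for 5 passages. The 3 naive cultures came from paws that received no injection. The 3 non-primed cultures came from right paws given monosodium urate crystals, the crystals of gout, on day 9, and the 3 primed cultures from left paws given them on day 0 and day 9. RNA was taken on day 18, paw side coincides with priming, and cultures with different numbers need not come from different mice. The age of the mice is not given in the sources used here, and the p-values below measure the spread between these samples, part of which may be technical.

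Levels are rlog values, a log2 scale on which the authors scaled each library for depth, and a difference of 1 is a doubling. All 9 fibroblast markers tested were present, with a mean between 12.999 and 13.52 per library. The naive libraries differed most among themselves. Over all tested genes the SD within the naive group had a median of 0.22, against 0.10 for the non-primed and 0.14 for the primed group. Over the 10 genes described here these medians were 0.52, 0.31 and 0.38. In such bulk cultures fewer cells of a type and less RNA per cell cannot be told apart.

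Levels of different genes were compared per length, as the rlog value minus log2 of the exonic length in kilobases. On that scale Spp1 was the most abundant of the 10 genes in every library, at 16.71 to 17.41, and Thbs3 the least abundant in every library, at 8.36 to 9.27. Between them stood, by the mean over 9 libraries, Fn1 at 14.66, Thbs1 at 13.90, Comp at 13.44, Postn at 13.43, Thbs2 at 12.29, Thbs4 at 12.18, Sparc at 11.70 and Tnc at 10.62. Fn1 was above Thbs1 in 9 of 9 libraries, Postn above Thbs2 in 9 of 9, and Sparc above Tnc in 9 of 9. Thbs1 was above Comp in 6 of 9 libraries, by a mean of 0.46 ± 1.38 (SD, n = 9 libraries), and Comp was above Postn in 4 of 9, by a mean of 0.01 ± 1.13 (SD, n = 9 libraries). Thbs2 and Thbs4 could not be ordered either, with Thbs2 higher in 4 of 9 libraries, and Thbs4 was above Sparc in 6 of 9. By the mean of the naive cultures Comp held the third place, at 13.93 against 13.20 for Thbs1 and 12.75 for Postn. That order did not hold in each naive library, and Thbs1 was above Comp in naive 3. The plain rlog value of Comp was 16.51 in naive 2, against 15.16 in naive 1 and 14.82 in naive 3. Over the 9 libraries the place of Comp per length ran from 2 to 7. In non-primed cultures Thbs1 stood at 14.25 and Postn at 13.72, both above Comp at 12.997. On the plain rlog scale, which does not correct for length, Fn1 ranked 5 and Spp1 ranked 6 among all 15623 tested genes, and Thbs3 ranked 2660.

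**Figure D1:**
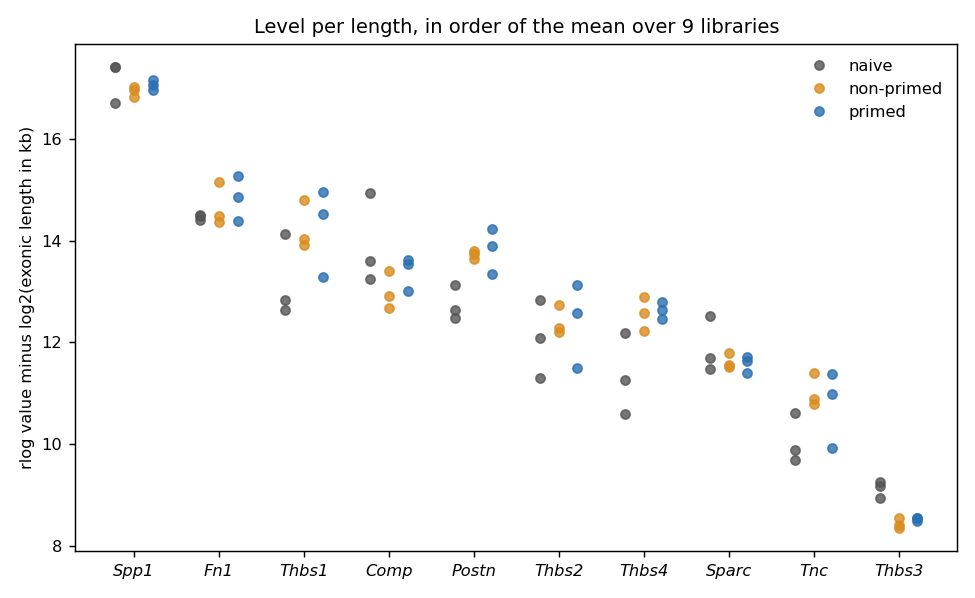
Level per length of each gene (y axis, rlog minus log2 of exonic kilobases) in each of 9 libraries, coloured by group and ordered from left to right by the mean. Spp1 is highest and Thbs3 lowest in every library, while Comp, Postn and Thbs1 overlap.

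Thbs3 was the only one of the 10 genes to pass the threshold, an adjusted p below 0.05, in a comparison with naive cultures. The gene (ENSMUSG00000028047, protein coding) lies on chromosome 3 from 89215180 to 89226837 on the plus strand of GRCm38. It stood at 11.53, 11.46 and 11.21 in naive 1, 2 and 3, at 10.63, 10.83 and 10.68 in non-primed 1, 2 and 3, and at 10.77, 10.82 and 10.81 in primed 1, 2 and 3. Every injected culture was therefore below every naive culture. Thbs3 fell from 11.40 ± 0.17 to 10.71 ± 0.10 in non-primed cultures (SD, n = 3), a difference of -0.69 (SE 0.10, limma adjusted p = 0.0483), or 1.61-fold lower. In primed cultures it was at 10.80 ± 0.03, a difference of -0.60 from naive (SE 0.10, adjusted p = 0.0757), which did not pass. With both injected groups as 1 mean it fell by 0.65 (SE 0.08, adjusted p = 0.0209).

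The call for non-primed cultures was lost in 15 of 19 alternatives, while the difference stayed between -0.84 and -0.62. Among libraries left out, the call held without naive 2 (adjusted p = 0.0257) or naive 3 (adjusted p = 0.00931) and was lost without each of the other 7, with adjusted p from 0.0505 without naive 1 to 0.275 without non-primed 1. With the replicate number as a block the adjusted p was 0.0644. The call for both injected groups together was lost in 6 of 18 alternatives. These were the fit with the macrophage markers as a covariate (-0.75, SE 0.13, adjusted p = 0.168) and those without non-primed 1, 2 or 3 (adjusted p = 0.0899, 0.0634 and 0.0907) or without primed 2 or 3 (adjusted p = 0.0602 and 0.0794). The exons of Thbs3 share 318 bases with those of Mtx1 on the opposite strand, and the strand setting of the counting is not given in the sources used here. Mtx1 stood at 9.22 to 9.49 over the 9 libraries, with a difference of 0.04 between injected and naive cultures (adjusted p = 0.817).

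Among all tested genes the threshold was passed by 0.141% in non-primed over naive, 0.102% in primed over naive and 1.22% in injected over naive cultures, against 1, 0 and 1 of the 10 genes here. In the F test of any difference among the 3 groups 0 of the 10 genes passed, against 0.0704% of all tested genes. At an unadjusted p below 0.05, 4, 3 and 5 of the 10 genes passed in those comparisons, against 15.4%, 16.9% and 19.9% of all tested genes. Groups did not overlap for 4 of the 10 genes between non-primed and naive (Thbs3, Thbs4, Postn and Tnc), against 21.9% of all tested genes. Between primed and naive cultures 3 of 10 did not overlap (Thbs3, Thbs4 and Postn), against 17.1%. The same 3 did not overlap between all injected and naive cultures, against 11.5%. The comparisons with naive cultures share the naive libraries. The median absolute difference was 0.69 over the 10 genes and 0.15 over all tested genes in injected against naive cultures, and the median signed differences were 0.31 and 0.00157. The 10 genes were not matched to that background. All but Thbs3 were in the top 250 by level, and rlog values understate differences of weak genes. Their median SD within the naive group was also larger, at 0.52 against 0.22. Whether they differed more than genes of like level and spread was not tested.

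Thbs4, a thrombospondin of tendon, muscle and heart best known from tissue under load or repair, was higher in every injected culture than in any naive one. The gene (ENSMUSG00000021702) spans 92751590 to 92794818 on the minus strand of chromosome 13. It stood at 12.98, 13.90 and 12.30 in naive 1, 2 and 3, at 13.94, 14.60 and 14.30 in the non-primed and at 14.17, 14.36 and 14.51 in the primed cultures in the same order. Naive 2 lay just below non-primed 1, the lowest injected culture, and naive 3 was the lowest of all. The difference was 1.22 (SE 0.35, adjusted p = 0.182) for non-primed and 1.29 (SE 0.35, adjusted p = 0.162) for primed over naive cultures, or 2.33-fold and 2.44-fold, and neither passed. For the injected groups together it was 1.25 (SE 0.31, adjusted p = 0.0865), with a 95% interval from 0.55 to 1.95. Without naive 2 that value was 1.67 and passed (adjusted p = 0.00805), and without naive 3 it was 0.87 and did not (adjusted p = 0.0892). The mean of the 13 tested macrophage markers moved in the same direction, from 7.19 to 9.62 in naive to 9.47 to 10.69 in injected cultures, with naive 2 again the highest naive library. With that mean as a covariate the difference of Thbs4 was 0.37 (SE 0.32, adjusted p = 0.609). The covariate rose with injection, so the fit cannot tell them apart. The part of macrophages in the values of Thbs4 was not tested.

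Postn, which encodes an integrin ligand that promotes collagen cross-linking in connective tissue under repair, also separated injected from naive cultures. The gene (ENSMUSG00000027750) lies on chromosome 3 from 54361109 to 54391037 on the plus strand. It stood at 15.60, 15.76 and 16.25 in naive, at 16.86, 16.92 and 16.75 in non-primed and at 16.46, 17.35 and 17.03 in primed 1, 2 and 3. The non-primed values were tight and the primed values were more spread, with an SD of 0.45 against 0.08. The difference was 0.97 (SE 0.27, adjusted p = 0.174) for non-primed, 1.07 (SE 0.27, adjusted p = 0.148) for primed and 1.02 (SE 0.24, adjusted p = 0.0786) for injected over naive cultures, so that it was 1.96-fold, 2.10-fold and 2.03-fold without passing. It passed in the last comparison without naive 3 (1.21, adjusted p = 0.0377) or without primed 1 (1.14, adjusted p = 0.0389). With the macrophage covariate, which rose with injection, the difference was 1.06 (SE 0.39, adjusted p = 0.278). The part of macrophages in the values of Postn was not tested.

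Tnc encodes tenascin C, a large glycoprotein of wounds and inflamed joints that can also activate Toll-like receptor 4. The gene (ENSMUSG00000028364) spans 63959785 to 64047015 on the minus strand of chromosome 4. It stood at 13.57, 12.65 and 12.85 in naive, 13.75, 14.35 and 13.85 in non-primed and 12.89, 14.34 and 13.95 in primed 1, 2 and 3. The non-primed cultures were all above the naive ones, while primed 1 lay among them. The differences from naive cultures, 0.96 in non-primed (SE 0.38, adjusted p = 0.279) and 0.70 in primed (SE 0.38, adjusted p = 0.376), did not pass. The primed value was 0.40 without primed 2 and 1.12 without primed 1, and the non-primed value was 0.50 with sample weights, none of which passed.

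The sequences just upstream of these 4 genes are shown because they are the members whose groups did not overlap in a comparison with naive cultures. RefSeq promoters on GRCm38.p6 were at hand for 7 of the 10 genes, and each line below gives the 250 bases before the start site, 5′ to 3′ on the strand of the gene: chr3:89214930-89215179 (plus), chr13:92794819-92795068 (minus), chr3:54360857-54361106 (plus) and chr4:64047016-64047265 (minus). Capitals mark matches on either strand to TATAAA, the letters of a TATA box. They also mark the GC box, a binding sequence of SP factors spelled GGGCGG. The SMAD-binding sequence searched was spelled CAGAC. The sequence bound by TEAD factors was spelled CATTCC. An AP-1 site spelled TGANTCA was searched as well and had no match in these 4 windows. The same held for ACGTG, the core of the hypoxia element.
Thbs3 promoter: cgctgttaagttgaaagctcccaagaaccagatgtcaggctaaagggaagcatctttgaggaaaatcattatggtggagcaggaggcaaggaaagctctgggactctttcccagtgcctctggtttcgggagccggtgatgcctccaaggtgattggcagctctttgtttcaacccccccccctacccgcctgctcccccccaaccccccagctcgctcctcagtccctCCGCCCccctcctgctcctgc
Thbs4 promoter: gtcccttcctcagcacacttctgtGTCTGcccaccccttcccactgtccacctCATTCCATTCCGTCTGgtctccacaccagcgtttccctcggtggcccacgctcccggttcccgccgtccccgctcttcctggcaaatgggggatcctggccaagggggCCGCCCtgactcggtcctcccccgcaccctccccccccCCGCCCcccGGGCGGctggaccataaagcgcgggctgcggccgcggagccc
Postn promoter: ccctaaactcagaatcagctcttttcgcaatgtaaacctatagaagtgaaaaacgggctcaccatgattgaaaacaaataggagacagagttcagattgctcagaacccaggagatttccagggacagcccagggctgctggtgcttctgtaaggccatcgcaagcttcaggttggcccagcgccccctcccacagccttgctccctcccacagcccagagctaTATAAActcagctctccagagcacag
Tnc promoter: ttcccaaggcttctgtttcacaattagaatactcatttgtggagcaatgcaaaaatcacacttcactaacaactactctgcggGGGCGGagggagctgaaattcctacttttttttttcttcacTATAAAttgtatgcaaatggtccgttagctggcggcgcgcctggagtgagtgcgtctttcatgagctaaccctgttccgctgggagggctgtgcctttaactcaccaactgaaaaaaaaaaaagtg

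Postn has a TATA box 26 to 21 bases before its start and Tnc one 126 to 121 bases before, where 12.3% of 32536 promoters of the same length hold TATAAA. Thbs3, the gene that fell, has 1 GC box and no TATA box, Tnc has 1 GC box and Thbs4 has 3, where 33.0% of promoters hold at least 1. The Thbs4 window has 2 matches to CATTCC, which share a base and which 12.6% of promoters hold at least once. It also has 2 matches to CAGAC, which 42.2% of promoters hold. TGANTCA was in 6.73% and ACGTG in 16.7% of promoters. GC content was 70.8% upstream of Thbs4, 58.8% of Thbs3, 52.0% of Postn and 44.8% of Tnc, against a median of 52.4%. A match describes letters only, and no motif was present in all 4 windows.

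Thbs1 had the widest range of the 10 genes over the 9 libraries, 2.33. The gene (ENSMUSG00000040152, chromosome 2, 118111876 to 118127133, plus strand) stood at 15.44, 15.24 and 16.74 in naive, 16.52, 17.40 and 16.64 in non-primed and 15.89, 17.57 and 17.12 in primed 1, 2 and 3. Naive 3 lay among the injected cultures and primed 1 among the naive ones, so the groups overlapped. The difference was 1.05 for non-primed (SE 0.53, adjusted p = 0.386) and 1.05 for primed (SE 0.53, adjusted p = 0.344) over naive cultures. The difference of injected from naive cultures was between 0.77 and 1.52 with 1 library left out, and 0.56 after quantile normalization, and passed in none of these fits.

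Thbs2, the closest relative of Thbs1 and a regulator of collagen fibre assembly, stood at 14.11, 14.90 and 15.63 in naive, 15.08, 15.54 and 15.004 in non-primed and 14.31, 15.95 and 15.39 in primed 1, 2 and 3. The gene (ENSMUSG00000023885) lies on chromosome 17 from 14665500 to 14694235 on the minus strand. The naive libraries alone covered most of the range, and the differences of 0.33 in both injected groups (SE 0.47, adjusted p = 0.787 for non-primed and 0.756 for primed) were smaller than the SD of 0.76 in naive cultures.

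Comp had lower means in both injected groups. The gene (ENSMUSG00000031849) lies on chromosome 8 from 70373558 to 70382066 on the plus strand. It stood at 15.16, 16.51 and 14.82 in naive, 14.48, 14.24 and 14.98 in non-primed and 15.12, 14.59 and 15.19 in primed 1, 2 and 3. Its groups overlapped, and naive 2 held the highest value. The difference was -0.93 (SE 0.41, adjusted p = 0.329) for non-primed and -0.54 (SE 0.41, adjusted p = 0.536) for primed over naive cultures, and neither passed. For the injected groups together it was -0.73 (SE 0.36, adjusted p = 0.292), with -0.23 without naive 2 and -1.50 (SE 0.49, adjusted p = 0.247) with the macrophage covariate. The marker lists of tissues that make COMP had their highest means in naive 2, at 9.61 for the 6 tested cartilage markers and 9.69 for the 5 tendon markers, against 7.92 to 8.78 and 8.50 to 8.91 in the other 8 libraries. The bone, adipocyte and fibroblast lists were also highest in naive 2, at 8.42, 8.45 and 13.52. The part of these lists and of macrophages in the values of Comp was not tested.

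Sparc, a collagen-binding glycoprotein, was highest in the same library. The gene (ENSMUSG00000018593, chromosome 11, 55394500 to 55423183, minus strand) stood at 13.41, 14.44 and 13.62 in naive, 13.47, 13.72 and 13.44 in non-primed and 13.32, 13.64 and 13.56 in primed 1, 2 and 3. The difference of injected from naive cultures was -0.30 (SE 0.21, adjusted p = 0.461). It was 0.0119 without naive 2 and -0.93 (SE 0.20, adjusted p = 0.190) with the macrophage covariate. The part of macrophages in the values of Sparc was not tested.

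Spp1 encodes osteopontin, a phosphorylated integrin and CD44 ligand that macrophages and bone cells make as well as fibroblasts. The gene (ENSMUSG00000029304, chromosome 5, 104435118 to 104441050, plus strand) stood at 18.13, 18.13 and 17.43 in naive, 17.54, 17.67 and 17.75 in non-primed and 17.77, 17.87 and 17.68 in primed 1, 2 and 3. The 6 injected cultures lay between naive 3 and the other naive libraries, and the difference of injected from naive cultures was -0.18 (SE 0.26, adjusted p = 0.729). Its 95% interval ran from -0.77 to 0.40. With the macrophage covariate the difference was -0.51 (SE 0.37, adjusted p = 0.542), and the part of macrophages in the values of Spp1 was not tested.

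Fn1 (ENSMUSG00000026193, chromosome 1, 71585520 to 71653200, minus strand) had nearly one level in naive cultures, 17.95, 18.04 and 18.05, where its SD of 0.06 was the smallest of the 10 genes. It stood at 17.92, 18.69 and 18.03 in non-primed and 17.94, 18.81 and 18.41 in primed 1, 2 and 3. Non-primed 2 and primed 2 were the highest, and the difference of injected from naive cultures was 0.29 (SE 0.32, adjusted p = 0.655). Short exonic stretches of Thbs1, Tnc, Spp1 and Fn1, of 176 to 309 bases, are shared with other annotated genes, whose rlog values did not exceed 6.06 in any library.

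**Figure D2:**
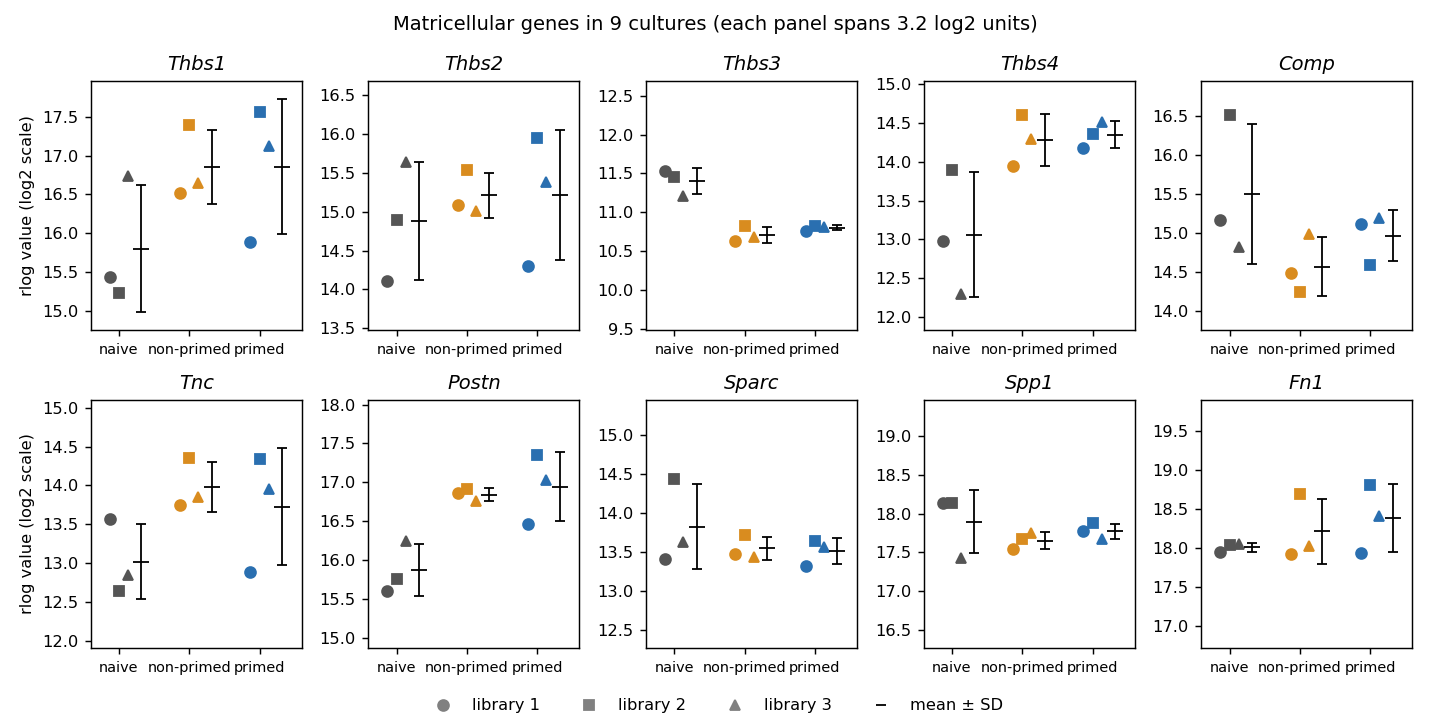
Value of each gene (y axis, rlog on a log2 scale, each panel spanning the same range) in the 9 libraries by group, with the shape of a symbol giving the library number and mean ± SD beside it (n = 3). Thbs3 is lower, and Thbs4 and Postn are higher, in all 6 injected cultures than in any naive culture.

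Primed and non-primed cultures, whose comparison asks what an earlier crystal injection left behind, did not differ past the threshold for any of the 10 genes in the unweighted fit of all 9 libraries. The differences ran from -0.26 for Tnc to 0.40 for Comp, 8 of 10 were above 0, and the median absolute difference was 0.10 against 0.09 over all tested genes. No gene among the 10 had groups without overlap, against 11.6% of all tested genes, and 0% of tested genes passed the threshold. At an unadjusted p below 0.05 the counts were 0 of 10 and 197 of 15623 (1.26%) with limma. The 95% intervals show what differences the data allow. For Thbs3 the interval was -0.13 to 0.31, for Postn -0.52 to 0.72, for Thbs4 -0.74 to 0.87 and for Thbs1 -1.19 to 1.201. Pairing the injected cultures by number, without the naive ones, gave narrower intervals, of -0.57 to 0.59 for Thbs1, -0.40 to 0.60 for Postn, -0.21 to 0.35 for Thbs4 and -0.0477 to 0.22 for Thbs3. This paired fit was added after seeing the data, and the pairing of library 3 is uncertain. For Comp the primed culture was higher in 3 of 3 pairs, by 0.63, 0.35 and 0.21 in pairs 1, 2 and 3, with an interval of 0.14 to 0.65. Fn1 was also higher in 3 of 3 pairs, with an interval of -0.41 to 0.75. The share of all tested genes with every pair in the same direction is not given here. In this paired fit 0 of the 10 genes passed, with an adjusted p of 0.483 for Comp. With sample weights 3 of the 10 genes passed, against 13.5% of all tested genes, each higher in primed cultures: Comp at 0.61 (SE 0.16, adjusted p = 0.0371), Thbs4 at 0.46 (SE 0.13, adjusted p = 0.0489) and Thbs3 at 0.17 (SE 0.0392, adjusted p = 0.0298).

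**Figure D3:**
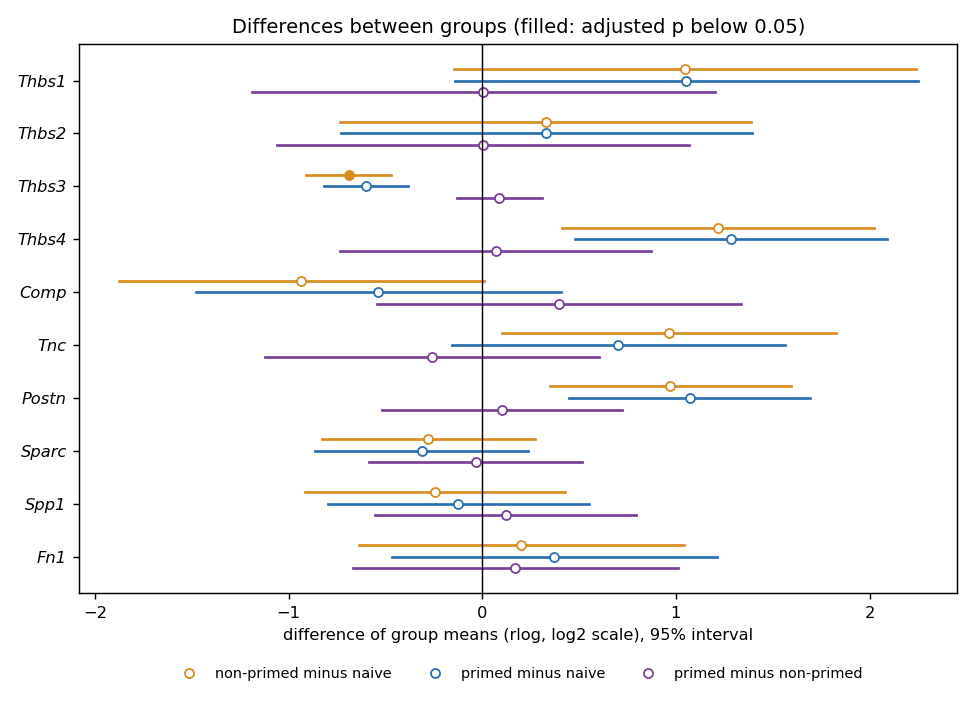
Difference of group means (x axis, rlog on a log2 scale) with its 95% interval from the limma fit for each gene and each pairwise comparison, with filled points for an adjusted p below 0.05. The filled point is Thbs3 in non-primed over naive cultures, at -0.69, and the intervals of primed over non-primed cultures all span 0.

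Several of the genes had their high and low values in the same libraries of the injected groups. Library 2 was the highest of its group in both the non-primed and the primed set for 7 of the 10 genes (Fn1, Thbs1, Postn, Thbs2, Sparc, Tnc and Thbs3), against 24.8% of all tested genes. In primed cultures library 1 was the lowest for 8 of the 10, against 38.4% of all tested genes. The other two were Spp1 and Comp. Comp ran against this, with library 2 the lowest of both injected groups at 14.24 and 14.59. The macrophage marker mean was also highest in non-primed 2, at 10.23, and primed 2, at 10.69, and the part of that in the pattern was not tested. Over all 9 libraries the pairs with the highest Pearson r were Thbs1 with Postn at 0.90, Thbs1 with Thbs2 at 0.84 and Thbs1 with Fn1 at 0.78, and the lowest was Postn with Thbs3 at -0.87. These describe libraries that share their groups and possibly mice.

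**Figure D4:**
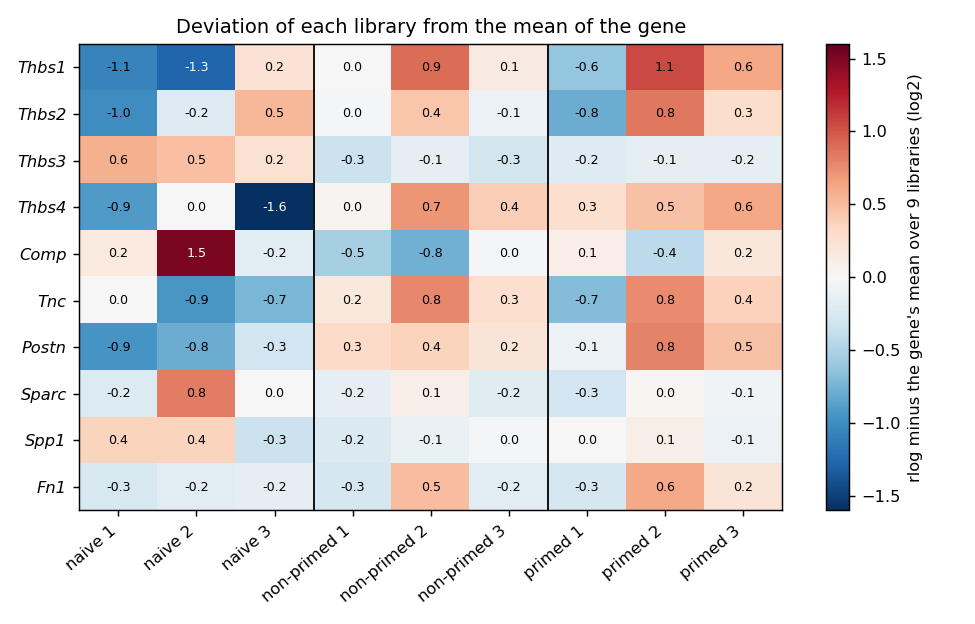
Deviation of each library (columns) from the mean of each gene over 9 libraries (rows), in rlog units on a log2 scale, red above and blue below. Non-primed 2 and primed 2 are red for Thbs1, Thbs2, Tnc, Postn and Fn1 and blue for Comp.

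Among the tested genes other than predicted ones, the profile most like that of Thbs3 over the 9 libraries was that of Ptprs, a receptor tyrosine phosphatase, with a Pearson r of 0.97, followed by Abtb2 and Zc3h7b at 0.97 each. For Thbs4 they were Aig1 (0.99), Ppp1r3g (0.97) and Peli1 (0.96), and for Postn B4galt7 (0.98), an enzyme that builds the linker of glycosaminoglycan chains, Hsd17b4 (0.98) and Pygl (0.98), the glycogen phosphorylase of liver. Those most like Thbs1 were Rnf4 (0.99), Ica1 (0.99) and Slc35b3 (0.98), and those most like Thbs2 were Fibin (0.98), Bbox1 (0.97) and Cercam (0.97). Sparc was most like Insr (0.96), the tendon gene Tnmd (0.94) and Ncoa1 (0.93). For Tnc they were Hmcn2 (0.98), Rap1gap2 (0.98) and Myo5a (0.98), for Comp Ccdc62 (0.96), Ddx51 (0.96) and Aldh3a1 (0.95), for Spp1 Cacna1a (0.97), Sod3 (0.96) and Rsph10b (0.95), and for Fn1 Ppfia4 (0.97), Lrrc20 (0.96) and Galnt3 (0.94). All these r values were picked as the highest among many genes, over only 9 libraries in 3 groups. Shared regulation was not tested.

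Of 25 other genes for matricellular and related matrix proteins (CCN proteins, further tenascins, fibulins, spondins and relatives of SPARC), 21 were tested. In injected over naive cultures 1 passed, against 1.22% of all tested genes, a share that also applies to the lists that follow. Sparcl1, the closest relative of Sparc, stood at 11.002, 11.46 and 12.12 in naive, 9.27, 8.89 and 9.35 in non-primed and 10.52, 8.93 and 9.65 in primed 1, 2 and 3. All injected cultures were below all naive ones, and Sparcl1 fell by 2.09 (SE 0.34, adjusted p = 0.0367), with the call lost in 7 of 18 alternatives, including those without any 1 non-primed library, primed 2 or primed 3 (adjusted p up to 0.106), and the macrophage covariate (adjusted p = 0.246). The list as a whole had 10 higher and 11 lower members, a median of -0.10, and 8 of 21 members at an unadjusted p below 0.05, against 19.9% of all tested genes.

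For the receptors 0 genes passed, with 6 of 20 at an unadjusted p below 0.05 with limma, against 19.9% of all tested genes. Of 21 genes for integrin chains, CD36, CD47, CD44, LRP1 and other receptors of these ligands, 20 were tested, 10 were higher and 10 lower in injected than in naive cultures, with a median of 0.06. Those with the smallest p over the 3 groups were Itga4, an integrin chain that binds fibronectin and osteopontin, at -1.13 (SE 0.30, adjusted p = 0.0936), and Cd47, the thrombospondin receptor, at -0.41 (SE 0.12, adjusted p = 0.107). They were followed by Itga8 at -1.80 (SE 0.62), where naive 3 alone stood at 11.13 against 6.97 to 8.36 elsewhere, and Lrp1, which clears thrombospondin complexes, at -0.47 (SE 0.17). All 6 injected cultures were below all naive ones for Lrp1, and below naive 1 and naive 2 but not all below naive 3 for Cd47.

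Among 20 matrix partners, such as collagens, lysyl oxidase and matrilins, 17 were tested, 10 were higher, 7 were lower and 0 passed, with a median of 0.07. At an unadjusted p below 0.05 with limma the count was 3 of 17, against 19.9% of all tested genes. Those with the smallest p over the 3 groups were Matn4 at -1.32 (SE 0.42), Col5a1 at 0.58 (SE 0.23), Lox at 0.66 (SE 0.27) and Col5a2 at 0.68 (SE 0.40). Of 15 proteases that cut these proteins 14 were tested, 10 were higher, 4 were lower and 0 passed, with a median of 0.36 and 4 of 14 at an unadjusted p below 0.05 with limma, against the same 19.9%. Plat, tissue plasminogen activator, differed by 0.80 (SE 0.18, adjusted p = 0.0714), Adamts5, an aggrecanase, by 0.67 (SE 0.16, adjusted p = 0.0786), Adamts7, which cuts COMP, by 0.38 (SE 0.14, adjusted p = 0.180) and Adamts4 by -0.24 (SE 0.10, adjusted p = 0.239).

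All 20 genes of the TGF-beta axis were tested, and 2 of them, both for latent TGF-beta binding proteins of the matrix, passed and were lower in injected than in naive cultures, against 1.22% of all tested genes past the threshold. At an unadjusted p below 0.05 the count was 9 of 20, against 19.9% of all tested genes. This list and the other related lists were chosen with earlier results of these data known. They were not matched to all tested genes in level or spread. Ltbp3 stood at 11.97, 12.27 and 12.18 in naive, 11.37, 11.52 and 11.38 in non-primed and 11.64, 11.39 and 11.49 in primed 1, 2 and 3, and fell by 0.67 (SE 0.09, adjusted p = 0.0209). Ltbp4 stood at 5.51, 6.07 and 6.85 in naive and at 4.67 to 4.92 in the 6 injected cultures, and fell by 1.37 (SE 0.25, adjusted p = 0.0455). Neither gene had groups that overlapped, and Ltbp3 also passed in non-primed over naive cultures, as Thbs3 did, at -0.71 (SE 0.10, adjusted p = 0.0483), a call lost in 14 of 19 alternatives, among them the replicate block (adjusted p = 0.0797), with adjusted p up to 0.275 without non-primed 1. The call of Ltbp3 in injected cultures was lost in 6 of 18 alternatives. These were the macrophage covariate (adjusted p = 0.168) and the fits without any 1 non-primed library, primed 2 or primed 3 (adjusted p up to 0.0954). That of Ltbp4 was lost in 11 of 17, among them those without naive 2, without any 1 non-primed and without any 1 primed library (adjusted p up to 0.126). It was also lost with the replicate block (adjusted p = 0.0504) and with the macrophage covariate (adjusted p = 0.267). Of the 20 genes, 6 were higher and 14 lower, with a median of -0.19 against 0.00157 over all tested genes.

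**Figure D5:**
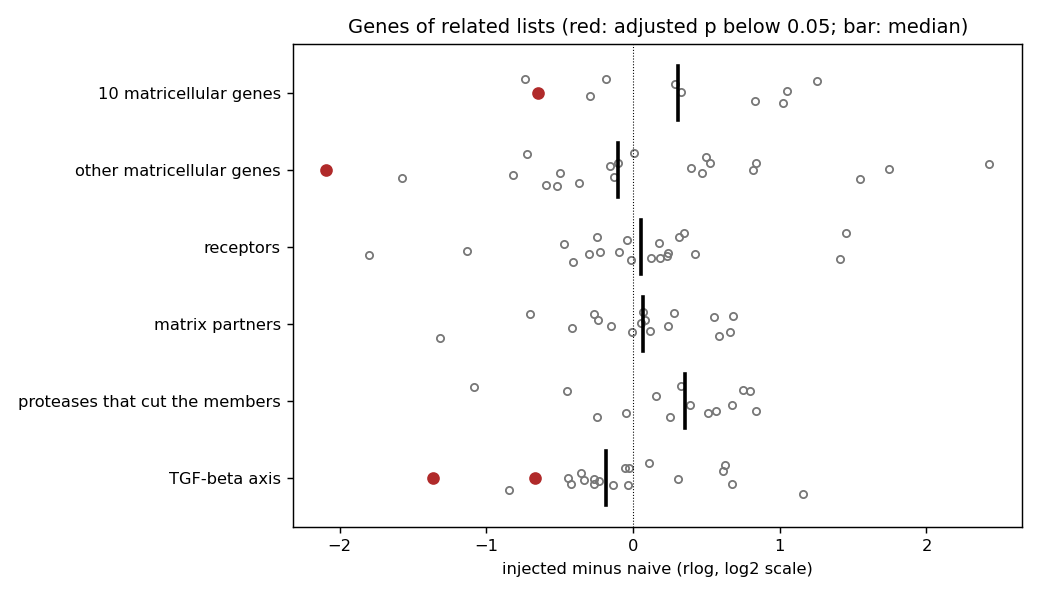
Difference of injected from naive cultures (x axis, rlog on a log2 scale) for each tested gene of the 10 described here and of 5 related lists, with a bar at the median of each list and red for an adjusted p below 0.05. The red points are Thbs3 at -0.65, Sparcl1 at -2.09, Ltbp3 at -0.67 and Ltbp4 at -1.37.

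Markers of other cell types give the setting of these values. Macrophage markers were detected, with Lyz2, C1qa, Adgre1 and Tyrobp the most abundant and Cd163 below the filter. All 13 tested were higher in injected than in naive cultures, by a median of 1.94. Past the threshold were 0, against 1.22% of all tested genes. At an unadjusted p below 0.05 with limma were 13 of 13, against 19.9% of all tested genes. In the same comparison the counts were 4 of 4 skeletal muscle, 4 of 5 tendon, 3 of 5 adipocyte and 2 of 6 cartilage markers. For bone, endothelial and fibroblast markers they were 1 of 4, 1 of 4 and 1 of 9. The 4 tested skeletal muscle markers were higher by a median of 1.37, the 5 tested adipocyte markers at a median of -1.82 and the 5 tendon markers at -0.37, with 0 calls each. Only 4 of 8 endothelial markers were tested, with means of 4.57 to 5.66. The 6 tested cartilage and 4 tested bone markers had medians of -0.48 and -0.44, and Snorc in the first list and Lep among adipocyte markers were at 0 in all libraries. The fibroblast markers had a median of 0.03, with Pdpn, named after its value was seen, at 0.51 and past the threshold (adjusted p = 0.0367). That call was lost in 9 of 18 alternatives. These were the replicate block (adjusted p = 0.0502), no variance trend (0.0557), no filter on low values (0.0620), the macrophage covariate (0.190) and the fits without any 1 non-primed library, primed 2 or primed 3 (0.0648 to 0.119).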

How the data were processed

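Per the labels' protocols, RNA went into a stranded mRNA library kit, and per the submitters' processing notes the tools were cutadapt 2.5, STAR 2.5.4a, Subread 1.6.1 with featureCounts and DESeq2, on GRCm38. The authors deposited rlog values, on a log2 scale, with low genes drawn towards their mean, so differences of weak genes are understated. No counts were used, and depth is unknown. Identifiers were paired with symbols for 47224 of 47729 genes. Coordinates and exonic lengths are from GENCODE M21 (GRCm38). The 15623 genes with a mean of at least 3 entered a limma 3.58.1 fit (R 4.3.3) with 1 mean per group, 6 residual degrees of freedom, a variance trend, two-sided tests and Benjamini-Hochberg adjustment over all of them. An exact test of 3 against 3 cannot go below 0.1. "Injected" is the mean of both injected group means. The script was tested on simulated data.

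The genes and lists (6 with the 10 genes, plus 8 marker lists) were chosen with earlier results of these data known. Named are the 10 genes, called genes of each pathway list or else the 4 with the smallest F test p, the 4 most abundant markers of a list where markers are named, and the 3 most alike genes by Pearson r. The 10 alternatives were 2 other filters, no trend, a robust prior, sample weights, 2 scalings, the groups compared alone, a replicate block and a macrophage covariate, beside leaving out each library. Deviations from group means correlated at 0.418, 0.608 and 0.100 between non-primed and primed libraries 1, 2 and 3, so these were taken as possibly paired. Non-primed 3 correlated more with primed 1, at 0.275, so the pairing of library 3 is uncertain. For naive with non-primed libraries the values were 0.151, -0.160 and -0.117, and for naive with primed libraries 0.0927, -0.0532 and 0.101. These had mixed signs, and naive libraries were not taken as paired.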

Additional observations from a re-analysis of the deposited data

How the results depend on the processing

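Of 760 differences of the 10 genes recomputed under the alternatives, 692 kept their direction and their side of the threshold, 21 lost a call, each for Thbs3, 16 gained one and 31 changed sign. Of the 31, 23 were in primed over non-primed cultures, where differences were small. The number of the 10 genes past the threshold in non-primed over naive cultures was 1 and became 0 with no filter, a filter at 6, no variance trend, a robust prior, quantile normalization, the replicate block, the macrophage covariate or the groups compared alone, and 2 with sample weights. With sample weights it was 3 in primed over naive, 3 in primed over non-primed, 3 in injected over naive and 5 in the F test of any difference, whose other values were 0, 0, 1 and 0. Sample weights also raised calls over all tested genes, in primed over non-primed cultures from 0% to 13.5%. The shares of all tested genes with sample weights in the other comparisons are not given here. The number of the 10 genes past the threshold was 0 in injected over naive cultures with the macrophage covariate. Leaving out 1 library gave 0 to 2 for each injected group over naive, 0 to 2 for both together and 0 to 1 for the F test. The replicate block changed no other call among the 10 genes. It ended the call of Ltbp3 in non-primed over naive cultures and those of Ltbp4 and Pdpn in injected over naive cultures. The call of Ltbp3 in injected over naive cultures held with the block (adjusted p = 0.0352). The cause of these changes was not tested.

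Signs that changed were as follows. Quantile normalization gave -0.0922 for Spp1, -0.0055 for Thbs1, -0.11 for Postn and -0.0770 for Thbs2 in primed over non-primed cultures. The macrophage covariate gave -0.0123 for Thbs2 and -0.0232 for Thbs4 there and -0.0261 for Fn1 in non-primed over naive. Sample weights gave 0.0727 for Sparc and 0.12 for Tnc in primed over non-primed. With 1 library left out, the range in primed over non-primed was -0.0424 to 0.41 for Fn1, -0.35 to 0.49 for Thbs1, -0.10 to 0.34 for Postn, -0.36 to 0.46 for Thbs2, -0.10 to 0.23 for Thbs4, -0.10 to 0.0601 for Sparc and -0.57 to 0.16 for Tnc. In non-primed over naive it was -0.0367 to 0.35 for Fn1, -0.0565 to 0.70 for Thbs2 and -0.49 to 0.0288 for Sparc. In primed over naive it was -0.0526 to 0.78 for Thbs2, and in injected over naive -0.0545 to 0.71 for Thbs2 and -0.50 to 0.0119 for Sparc. The fit of the 6 injected libraries paired by number was added after seeing the data.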
